A study of Homo sapiens with 42 samples.

Results

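Chromosome 19 carries the densest group of zinc finger genes of the human genome, and their promoters were followed here in the open chromatin of MCF10A cells. The members were the protein-coding genes of chromosome 19 whose symbol is ZNF followed by digits in the GENCODE 44 annotation of hg38. There were 240 of them among 20033 protein-coding genes, and the other 1227 protein-coding genes of chromosome 19 and the 236 genes of the same naming on other chromosomes served for comparison. Another 9 chromosome 19 genes carry ZNF in a differently built symbol and were not counted. A promoter was called detected in a library when the summit of a peak lay within 1 kb of a start of the gene. Of the 240 members, 186 had a peak in at least 1 of 42 libraries and 54 had none.

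Most of these genes encode proteins with an array of C2H2 zinc fingers that bind DNA, many of them joined to a KRAB domain. The KRAB domain recruits the corepressor TRIM28, which brings the histone methyltransferase SETDB1 and HP1 proteins to the bound site. Many of the bound sites lie in transposable elements, and the genes themselves arose by tandem duplication, so that neighbours on the chromosome are often related in sequence.

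MCF10A is an immortalised breast epithelial cell line that does not form tumours. All groups were kept in medium with horse serum, hydrocortisone and cholera toxin but without the EGF and insulin of the growth medium, and ligand was then added for 24 or 48 h. The groups were CTRL, taken at 0 h (4 libraries), PBS as vehicle (3 at 24H and 3 at 48H), EGF at 10 ng/ml (4 and 4), HGF at 40 ng/ml (3 and 3), OSM at 10 ng/ml (3 and 3), IFNG + EGF, labelled 20 ng/ml (3 and 3), and TGFB + EGF, labelled 10 ng/ml (3 and 3). Each of the 42 ATACseq libraries was made with the Omni-ATAC protocol, in which a transposase cuts and tags accessible DNA, and the deposited files hold the peaks called in each library on its own.

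The libraries differed widely in yield. They held 4217 to 113805 peaks, and 30 libraries passed the quality threshold of the study, which rests on the fraction of reads in peaks, while 12 did not. The share of members detected ran from 55 to 76.7% in the 30 libraries that passed and from 3.75 to 58.3% in the 12 that did not. Read counts are not in the peak files, so the depth is unknown and no counting interval is given. Of the promoters of basal epithelial markers, 8 of 10 were detected in at least 21 libraries, beside 60% of all promoters and 79.9% of all CpG-rich ones, with KRT5 in 31, KRT14 in 10 and TP63 in 0. All 4 endothelial markers and the leukocyte markers PTPRC, SPI1 and CD3E were at 0 libraries, and the leukocyte marker CD14 was in 36. Among fibroblast markers PDGFRA and LUM were at 0, DCN in 9 and COL1A1 in 6 libraries, and among liver and neuron markers ALB and APOA2 were at 0, SNAP25 in 4 and GAD1 in 29.

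Promoter sequences of 4 members are given because the results below turn on them: ZNF527, the member with the highest mean peak; ZNF677, a CpG-rich promoter that was never detected; and ZNF91 and ZNF43, relatives from the same cluster of which the first was detected in 38 libraries and the second in none. Each run is the 250 bases before the RefSeq start in GRCh38.p14, read in the direction of transcription, and capitals mark the ETS letters CCGGAAG on either strand (CTTCCGG on the other).
ZNF527 (chr19:37370849-37371098, plus strand): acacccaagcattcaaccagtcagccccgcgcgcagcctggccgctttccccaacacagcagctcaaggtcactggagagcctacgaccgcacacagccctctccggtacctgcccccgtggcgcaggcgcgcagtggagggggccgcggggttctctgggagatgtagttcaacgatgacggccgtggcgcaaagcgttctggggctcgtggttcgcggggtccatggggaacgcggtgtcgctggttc
ZNF677 (chr19:53254824-53255073, minus strand): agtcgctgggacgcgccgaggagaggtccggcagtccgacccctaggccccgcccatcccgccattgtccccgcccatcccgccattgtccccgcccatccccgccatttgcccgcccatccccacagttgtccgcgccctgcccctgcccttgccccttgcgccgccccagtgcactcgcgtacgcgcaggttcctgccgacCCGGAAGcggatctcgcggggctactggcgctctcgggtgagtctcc
ZNF91 (chr19:23395472-23395721, minus strand): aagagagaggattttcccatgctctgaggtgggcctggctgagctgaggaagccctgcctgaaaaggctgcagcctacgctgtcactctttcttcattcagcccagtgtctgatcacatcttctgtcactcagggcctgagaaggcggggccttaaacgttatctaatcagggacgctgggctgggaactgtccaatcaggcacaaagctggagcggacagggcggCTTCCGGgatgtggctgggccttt
ZNF43 (chr19:21836183-21836432, minus strand): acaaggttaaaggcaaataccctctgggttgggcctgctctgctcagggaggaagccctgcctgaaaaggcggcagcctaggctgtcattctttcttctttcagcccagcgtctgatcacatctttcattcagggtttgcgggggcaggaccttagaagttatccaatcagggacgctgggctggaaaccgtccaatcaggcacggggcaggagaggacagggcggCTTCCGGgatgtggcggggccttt
The ZNF91 and ZNF43 promoters were identical at 207 of 243 aligned positions (85.2%), ETS letters at the same distance from the start included. ZNF527 and ZNF677 held 24 and 28 CG dinucleotides in these 250 bases, against 7 in ZNF91 and 9 in ZNF43.

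Members were open more often than the other promoters of chromosome 19 and less often than zinc finger promoters elsewhere. Over the 42 libraries 60.1% of member promoters were detected, against 45.1% of the other chromosome 19 promoters, 71.2% of ZNF promoters on other chromosomes and 52.0% of all protein-coding promoters. The share of members was the higher of the first pair in 41 of 42 libraries, by −0.03 to 21.9 percentage points with a median of 15.9, and it was below that of ZNF genes elsewhere in 41 of 42. The exception to the former was the TGFB + EGF 24H C library, which held 5760 peaks.

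In the CTRL libraries 76.3, 75.4, 75.8 and 74.6% of members were detected, 75.5% ± 0.712 (SD, n = 4), against 60.2% ± 0.732 of the other chromosome 19 promoters. In EGF at 48H the share was 71.7% ± 1.02 (n = 4). The other groups had SDs of 6.51 (PBS at 24H) to 38.9 points, and the lowest mean was 29.3% ± 38.9 (n = 3) in TGFB + EGF at 24H, whose libraries stood at 74.2, 7.92 and 5.83%. This spread went with library yield, since those libraries held 108125, 7540 and 5760 peaks, and the ranges of all ligand groups overlapped that of PBS.

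**Figure D1:**
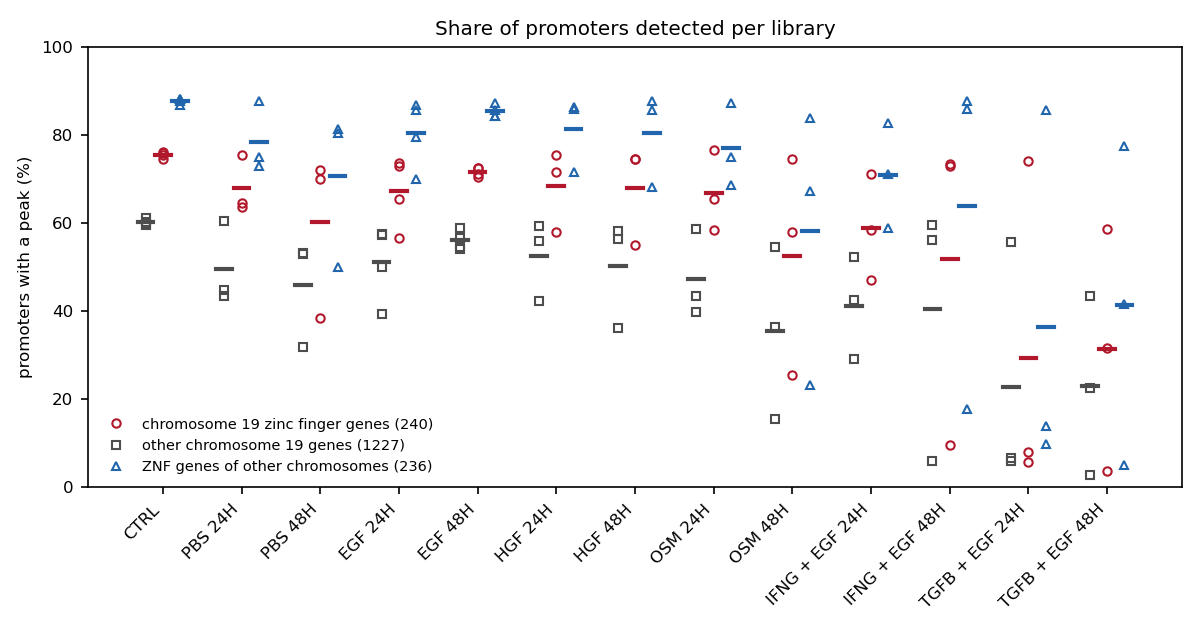
Share of promoters with a peak in each library (y axis, percent) by treatment and time (x axis), for the 240 members (circles), the 1227 other chromosome 19 genes (squares) and the 236 ZNF genes of other chromosomes (triangles), with bars at group means. The circles lie between the squares and the triangles in nearly every group, and all symbols fall together in the libraries with few peaks.

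Base composition separated the members into unequal groups. A start was called CpG-rich when the 500 bases on either side had a GC share of at least 0.5 and an observed over expected CpG ratio of at least 0.6, which held for 182 members (75.8%), 56.5% of the other chromosome 19 genes and 82.6% of ZNF genes elsewhere. Among CpG-rich starts, detection of members averaged 64.8% against 66.6% for the other chromosome 19 genes and 77.7% for ZNF genes elsewhere, and members were the lower of the first pair in 30 of 42 libraries and of the second in 41. Among the remaining starts the order was turned, with 45.2% of members, 17.3% of other chromosome 19 genes and 40.5% of ZNF genes elsewhere, and members stood above the other chromosome 19 genes in 42 of 42 libraries.

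Members were mostly either open in nearly all libraries or closed in all, as were promoters in general. A peak was present in 33 or more libraries at 126 members (52.5%), in 10 to 32 at 54 (22.5%), in 1 to 9 at 6 and in none at 54 (22.5%). Of all promoters 44.1% were in 33 or more libraries and 27.8% in none. These shares were 34.6 and 33.01% for other chromosome 19 genes, and 65.3 and 10.6% for ZNF genes elsewhere. Over all starts, the never-detected share of members was thus below those of all promoters and other chromosome 19 genes. It was above that of ZNF genes elsewhere. Of the CpG-rich starts, 33 of 182 members were never detected (18.1%), against 69 of 693 other chromosome 19 genes (9.96%), 8 of 195 ZNF genes elsewhere (4.1%) and 11.0% of all CpG-rich promoters. In the 30 libraries that passed, 112 members had a peak in every one and the same number, 54, had none.

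**Figure D2:**
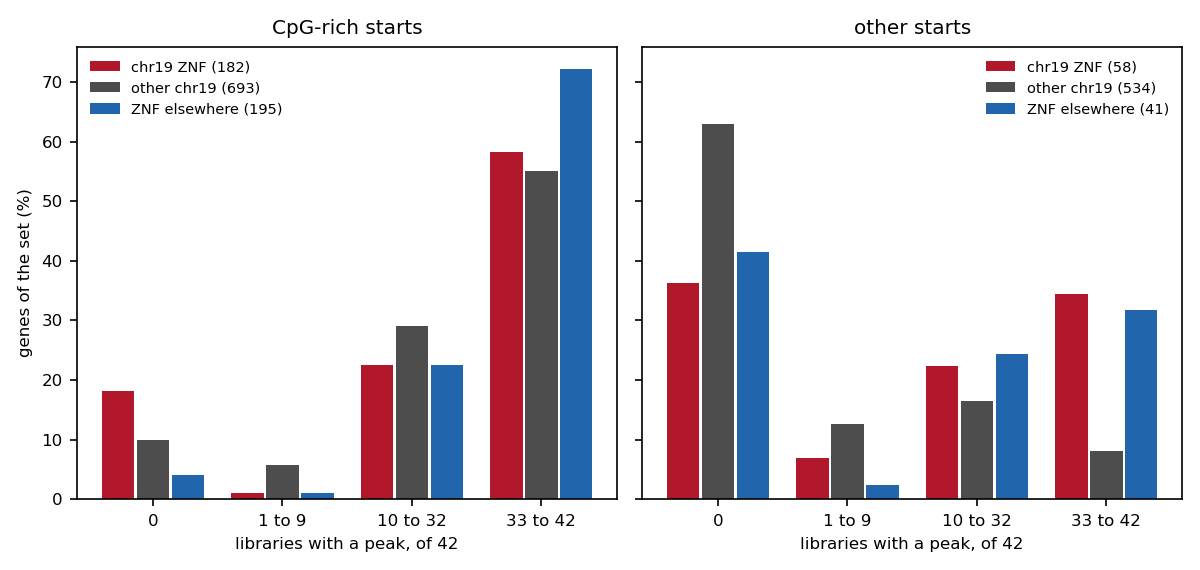
Percent of genes (y axis) by the number of the 42 libraries with a peak at the promoter (x axis), for CpG-rich starts on the left and other starts on the right, in members, other chromosome 19 genes and ZNF genes elsewhere. Among genes with CpG-rich starts, 18.1% of the members and 4.1% of ZNF genes elsewhere were never detected.

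CTRL already showed which members were open in these cells. A peak was called in all 4 CTRL libraries at 179 members, in 1 to 3 of them at 5 and in none at 56. Only ZNF442 and ZNF222 lacked a CTRL peak and had one later. ZNF442 had a peak in PBS 24H A (fold enrichment 3.54) and OSM 24H A (3.89), and ZNF222 in HGF 48H A (6.98), OSM 24H A (7.78) and IFNG + EGF 48H B (6.04). Both thus appeared in single libraries of a group, never in all replicates of one.

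ZNF708 was the one member with a peak in all 42 libraries. Its fold enrichment, the height of a peak over the local background, was 16.3, 15.6, 15.7 and 12.4 in CTRL. In PBS it ran from 7.77 over a median of 12.0 to 19.2, in EGF from 9.24 over 12.9 to 15.7, in HGF from 9.50 over 16.5 to 17.5, in OSM from 5.89 over 8.45 to 16.4, in IFNG + EGF from 5.50 over 11.6 to 12.9, and in TGFB + EGF from 5.55 over 6.04 to 14.8. The ranges of all treatments overlapped. ZNF799, ZNF565, ZNF146, ZNF574 and ZNF8 had a peak in 41 libraries. In the 5 libraries with the fewest peaks, 170 members had no peak at all, and 1 member, ZNF708, was detected in all 5.

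Peaks at members were higher and closer to the start than those at other chromosome 19 promoters. The median fold enrichment at detected members ran from 5.08 to 13.5 over libraries and was above that of the other chromosome 19 promoters in 41 of 42 libraries, by a median log2 ratio of 0.31 (range −0.02 to 0.50). It was also above that of ZNF genes elsewhere in 34 libraries, and with CpG-rich starts alone it was above the other chromosome 19 genes in 40. The median distance from summit to start was 54 bp at members, against 128 bp at other chromosome 19 genes, 66 bp at ZNF genes elsewhere and 90 bp at all genes. Peak width differed less: member medians ran from 188 to 742 bp, and the difference from other chromosome 19 promoters, −41 to 74.5 bp with a median of 20.3 bp, was positive in 33 libraries. Widths were not adjusted for library yield and are not compared between treatments.

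The highest mean fold enrichment was that of ZNF527 (ENSG00000189164.15), whose sequence is given above, at 14.5 over 38 libraries. Its CTRL values were 19.2, 16.3, 18.8 and 17.6. In PBS it lay between 11.5 and 18.7 (median 15.4), in EGF between 10.7 and 18.6 (15.6), in HGF between 7.36 and 20.8 (16.2), in OSM between 7.84 and 18.1 (10.2), in 5 of 6 IFNG + EGF libraries between 9.79 and 17.4 (15.4) and in 3 of 6 TGFB + EGF libraries between 5.44 and 17.8 (8.81). CTRL was high and tight, and its range was overlapped by that of each treatment. The lowest mean, 3.71, belonged to ZNF442 with its 2 libraries.

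**Figure D3:**
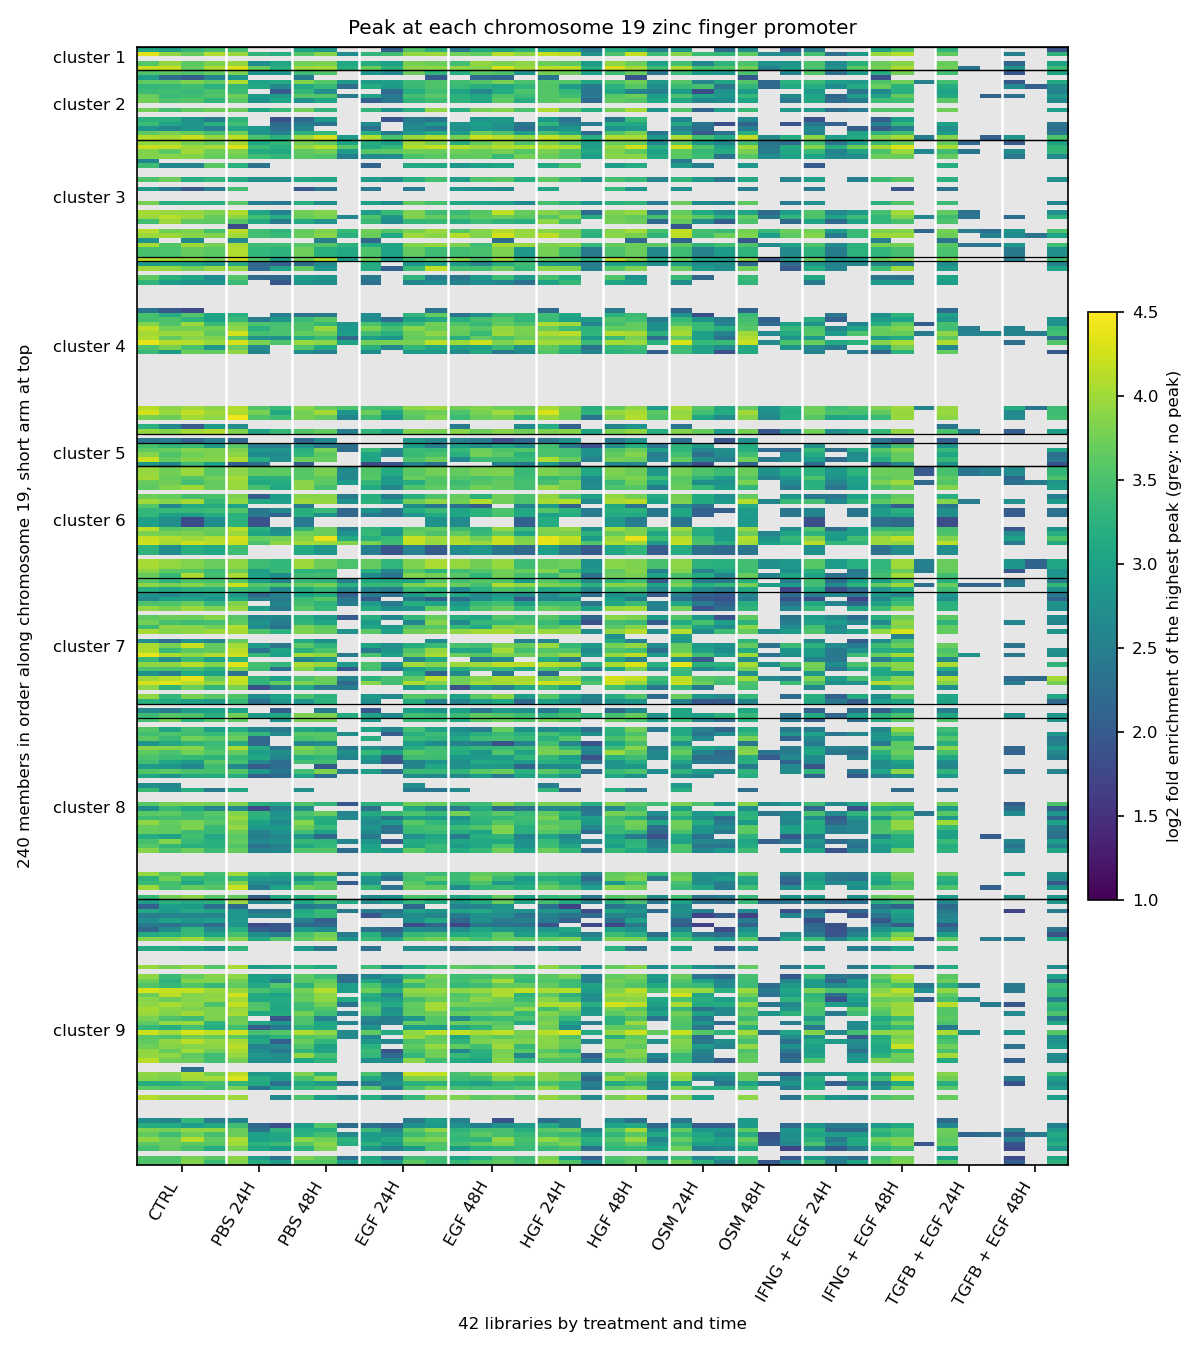
Log2 fold enrichment of the highest peak (colour) at each of the 240 members in chromosomal order (rows) in the 42 libraries by treatment and time (columns), with grey where no peak was called. Blocks of grey rows run across all treatments, and nearly grey columns are the libraries with few peaks.

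Members whose function is known were read as a list of 18, chosen with earlier results of these data known. Among repressors of transposable elements, ZNF91, which silences SVA elements, was detected in 38 libraries with a mean fold enrichment of 13.1. Its CTRL values were 19.4, 15.6, 18.0 and 16.1, and in TGFB + EGF it had a peak in 3 of 6 libraries between 6.33 and 15.5. ZNF93, a repressor of LINE-1 elements, was detected in 25 libraries with a mean of 7.18, and CTRL values of 9.84, 7.72, 7.22 and 6.95. It was thus the weaker promoter of this pair in every CTRL library. ZNF417 and ZNF587, which act on HERV-K proviruses, were both detected in 34 libraries, at means of 11.2 and 10.3. Those 2 promoters are 97.4% identical over their best match, and ZNF28 and ZNF468 are 96.6% identical, so that reads of these 4 genes may have been split between copies.

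ZNF274, which brings SETDB1 to zinc finger genes themselves, was detected in 35 libraries (mean 6.79), and ZNF675, a partner of TRAF6, in 38 (11.8). ZNF146, which has zinc fingers but no KRAB domain, was in 41 libraries (11.1), sharing its promoter and all of its peak values with ZNF565. ZNF224, a repressor of aldolase A, was in 35 libraries (9.80), the imprinted gene ZNF331 in 35 (9.35), ZNF473, a factor of histone mRNA processing, in 37 (9.65), ZNF649 in 32 (8.06) and ZNF350, a partner of BRCA1, in 28 (9.95). Of the members known for promoter methylation in tumours, ZNF154, ZNF582 and ZNF677 had no peak in any library, and ZNF671 had 1, in CTRL C, with a fold enrichment of 4.92. ZNF382, also known as silenced in tumours, and ZNF43 had none. All 5 of ZNF154, ZNF582, ZNF677, ZNF671 and ZNF382 had CpG-rich starts, whereas ZNF43 did not. In total 9 of the 18 were in 33 or more libraries and 5 in none, beside 126 and 54 of the 240. DNA methylation was not measured in these files.

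Several members share a promoter, and their peaks are then one measurement. A start of another member lay within 1 kb at 14 members, among them ZNF565 and ZNF146, and ZNF568 and ZNF829, which left 233 independent promoters. These 14 were detected in 80.4% of cases, with 0 never detected. A start of a non-member lay within 1 kb at 32 members, such as ZNF473 with VRK3, ZNF526 with DEDD2 and ZNF574 with GRIK5, and 74.6% of these were detected, against 57.9% of the 208 without. A peak at such a start cannot be assigned to either gene. Members with 1 annotated start were detected in 50.8% of cases (47 members) and those with 2 or more in 62.3% (193).

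Along the chromosome the members fell into 9 clusters of at least 5, divided by gaps of over 1 Mb and numbered from the short-arm end, with 231 members inside and 9 outside. Cluster 4 (chr19:19668839-24087187, 37 members), which flanks the centromere on the short-arm side, was lowest at 39.1% ± 13.8 (SD over 42 libraries) and was the lowest of the 9 in 36 of 42 libraries. Cluster 5 (5 members) averaged 76.2% and cluster 6 (chr19:36214665-37779586, 24 members) 75.4% ± 23.2, followed by 68.6% in cluster 1, 68.4% in cluster 7, 66.7% in cluster 2, 62.4% in cluster 9, 58.9% in cluster 8 and 55.4% in cluster 3. Within libraries, the cluster of higher mean was the higher of neighbours in this order, with cluster 4 last, in 28, 29, 14, 29, 32, 40, 31 and 41 of 42, so that cluster 1, which has 5 members, was below cluster 7 in 26 libraries although its mean was higher.

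**Figure D4:**
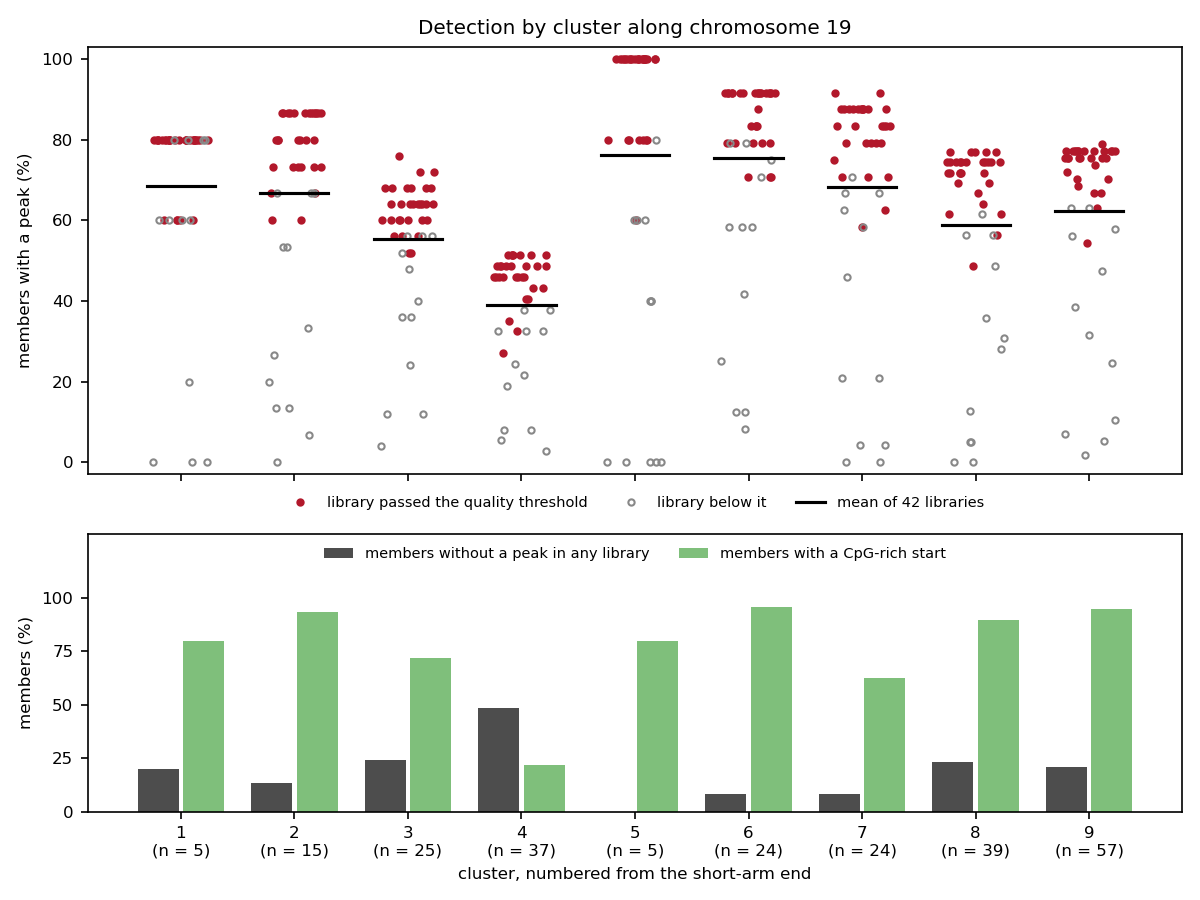
Upper panel, percent of a cluster's members with a peak (y axis) in each library (points, filled for libraries that passed the quality threshold) by cluster (x axis), with lines at means. Lower panel, percent of members never detected and percent with CpG-rich starts. Cluster 4 has the lowest mean (39.1%), the most closed members (48.6%) and the fewest CpG-rich starts (21.6%).

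Clusters differed in composition as well as in detection. CpG-rich starts made up 21.6% of cluster 4 and 62.5 to 95.8% of the others. Of the 54 members never detected, 18 lay in cluster 4, 12 in cluster 9, 9 in cluster 8, 6 in cluster 3, and 7 in the remaining clusters, with 2 outside any. In cluster 4, 13 of its 18 closed members had starts that were not CpG-rich, whereas all 9 of cluster 8 and all 12 of cluster 9 were CpG-rich. Within cluster 4 the 8 CpG-rich members were in 10.0 libraries on average and the 29 others in 18.2. CpG-rich members were in fewer libraries than the others in clusters 5, 6, 8 and 9 too, where 1, 1, 4 and 3 members were not CpG-rich, and in more in clusters 1, 2, 3 and 7, with 28.4 against 10.0 in cluster 3. Detected members of cluster 4 were no lower than the rest, with a median fold enrichment of 10.1 and a log2 difference of 0.11 from all members.

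Each cluster held high and low peaks. Among members in at least 30 libraries, the highest and lowest mean fold enrichments were 13.4 (ZNF77) and 11.1 (ZNF57) in cluster 1, 13.3 (ZNF846) and 6.79 (ZNF121) in cluster 2, and 14.3 (ZNF627) and 8.79 (ZNF20) in cluster 3. In cluster 4 they were 14.0 (ZNF493) and 6.87 (ZNF101), in cluster 5 10.4 (ZNF30) and 9.85 (ZNF181), and in cluster 6 14.5 (ZNF527) and 7.20 (ZNF345). In cluster 7 they were 13.8 (ZNF112) and 6.08 (ZNF576), in cluster 8 11.0 (ZNF808) and 7.08 (ZNF320), and in cluster 9 13.8 (ZNF549) and 5.84 (ZNF865). The CTRL values of ZNF549 (18.8, 16.2, 19.6 and 17.9) lay wholly above those of ZNF865 (5.64, 5.84, 6.07 and 5.94). Of these low members, ZNF345 shares its start with ZNF790 and ZNF576 with the non-members IRGQ and SRRM5.

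Closed members lay side by side. There were 8 runs of 2 or more neighbours never detected, holding 33 of the 54. Over the 222 pairs of neighbours within clusters, the next member was closed in 48.1% of cases after a closed one (25 of 52) and in 15.9% after an open one (27 of 170). These pairs were pooled over clusters in which 0% (cluster 5) to 48.6% (cluster 4) of members were closed. Pooling can by itself set such shares apart, and shares within single clusters were not counted. The longest run, of 11, was in cluster 4 and comprised ZNF43, ZNF208, ZNF257, ZNF676, ZNF729, ZNF98, ZNF492, ZNF99, ZNF723, ZNF728 and ZNF730. A run of 5 in the same cluster comprised ZNF682, ZNF90, ZNF486, ZNF737 and ZNF626. Runs of 4 were ZNF415, ZNF347, ZNF665 and ZNF677 in cluster 8, and ZNF418, ZNF256, ZNF606 and ZNF135 in cluster 9, and a run of 3 was ZNF667, ZNF471 and ZNF470 in cluster 9.

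No summit at all was called around the longest run. From chr19:21767669 to 23250079, 1.48 Mb without unknown bases in the reference, none of the 42 files held a summit, and all 11 protein-coding genes there were members. This was the longest stretch without a summit on the chromosome, and the stretch around the run of 5 (chr19:19901331-20776162, 0.875 Mb) ranked 3 by length. Open promoters bordered both: ZNF93 (25 libraries) lay at the first edge of the shorter one, and ZNF91 (38), ZNF675 (38), ZNF254 (39) and ZNF724 (40) followed the longer one. ZNF43 and ZNF91, with 85.2% identical promoters, thus lay on different sides of this border. The files hold no signal outside peaks, so that neither the copy number of these stretches nor how many reads could be placed there was measured.

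**Figure D5:**
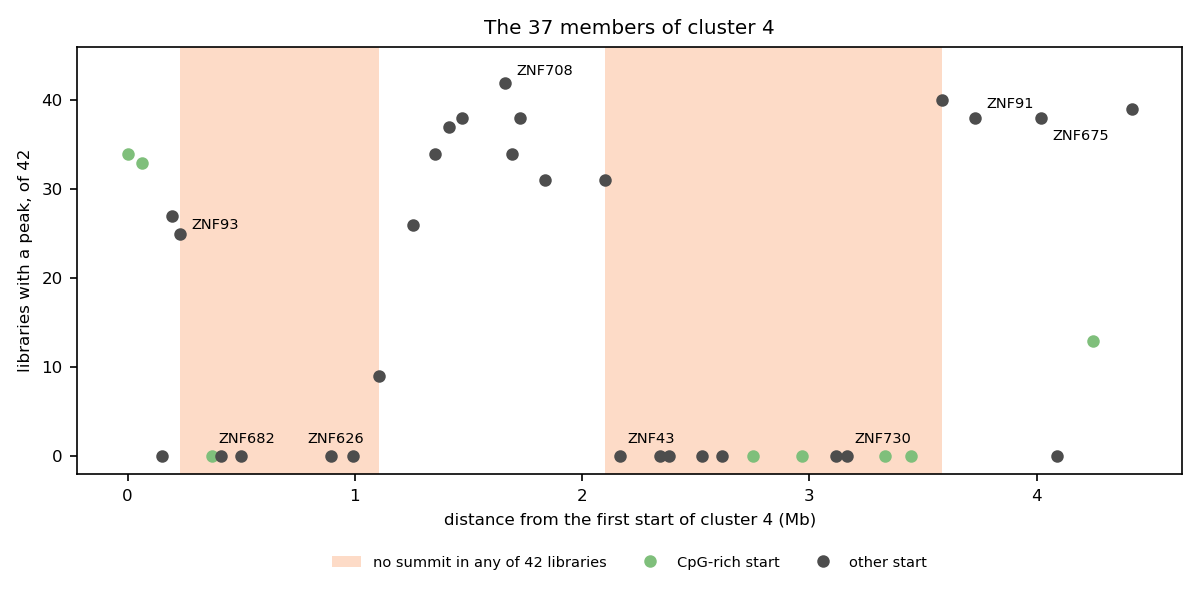
Number of the 42 libraries with a peak (y axis) at each of the 37 members of cluster 4 against distance from the first start of the cluster (x axis, Mb), coloured by CpG-rich or other start, with shading over the 0.875 and 1.48 Mb stretches that held no summit in any library. The 16 members inside the shaded stretches stand at 0, and the open members stand in blocks between and after them.

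For most closed members the nearest summit was far away. It lay at a median of 37960.5 bp over the 54 and at 654678 bp for ZNF98, and only 5 had a summit within 10 kb. Next to the 1 kb limit, ZNF491 counted as detected in 2 libraries with its nearest summit at 896 bp, and ZNF415 counted as never detected with a summit at 1826 bp in 1 library. The nearest summit of ZNF625 was at 6255 bp, with one within 10 kb in 37 libraries, and that of ZNF681 at 4044 bp, with one within 10 kb in 16. Outside the clusters, ZNF536, a gene of the nervous system, and ZNF541, a gene of germ cells, were closed as well.

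Of the members in 10 to 32 libraries, 35 ranged from 0 to 100% between groups, and the first 8 along the chromosome were ZNF358, ZNF426, ZNF440, ZNF433, ZNF253, ZNF93, ZNF85 and ZNF429. They were in 13, 22, 21, 20, 27, 25, 26 and 31 libraries. The group shares behind this range rest on 3 or 4 libraries each and were not adjusted for yield, so libraries with few peaks enter as they are. How many of all promoters have the same range was not counted, so the range is not read as an effect of treatment. All 8 had a peak in each CTRL library, and their mean fold enrichments ran from 5.00 to 8.97. ZNF358, the least frequent, had CTRL values of 7.80, 4.77, 4.08 and 5.85. The median of mean fold enrichment was 6.88 over the 54 members in 10 to 32 libraries and 10.3 over the 126 in 33 or more.

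Short sequence motifs were counted in the window from 250 bases before to 50 after the start, on both strands. The ETS letters CCGGAAG were in 43.8% of member promoters, against 15.1% of other chromosome 19 promoters, 34.7% of ZNF promoters elsewhere and 14.1% of all. CCAAT, the letters of NF-Y, were in 52.1%, against 37.1, 41.5 and 36%, and TTCNNNGAA, the letters of STAT factors, in 16.3%, against 6.60, 7.20 and 6.48%. Rarer than elsewhere on the chromosome were CACGTG (E-box) at 3.33 against 9.37% and TATAAA at 2.92 against 7.74%. GGGCGGG (SP/KLF) stood at 51.7 against 52.4%. The remaining letters searched, GCGCATGC (NRF1), AAGATGGC (YY1), TGACGTCA (CRE) and TGANTCA (AP-1), were each in 3.75 to 6.25% of members.

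Members with the ETS letters were detected in 57.6% of cases (105 members, 26 never detected) and members without them in 62% (135 members, 28 never detected). With CpG-rich starts alone the values were 59.4% with the letters (75 members) and 68.6% without (107). ZNF677, ZNF91 and ZNF43 carry them and ZNF527 does not, as the sequences above show. RefSeq promoters were matched for 210 of the 240 members, and for ZNF223 none was matched.

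The effect of the ligands on detection was tested promoter by promoter, in 1 limma fit of all promoters detected in 2 to 40 libraries, 13306 in all and 179 members among them. In this fit detection was 1 or 0 minus the share of equally common promoters that the library detected, so that yield was taken out, and a promoter was called where the p adjusted after Benjamini and Hochberg was under 0.01 and the difference was 0.5 or more. EGF, HGF and OSM were set against PBS, IFNG + EGF and TGFB + EGF against EGF, and PBS against CTRL, with both times together. Comparisons with the same reference group share its libraries. The study describes its replicates as biological, and all come from 1 cell line, so that the p-values measure the spread between these libraries. In bulk cells a peak in fewer cells cannot be told apart from a weaker one in all.

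No ligand moved a member past the threshold. EGF against PBS called 0 members, with 0% of all promoters called, and 16 members (8.94%) were at an unadjusted p under 0.05 beside 813 of all (6.11%). HGF called 0 members (0% of all), with 10 members and 775 of all at that p. OSM called 0 members (0.00752% of all), with 10 and 1197. IFNG + EGF against EGF called 0 members (0.210% of all), with 8 and 686. TGFB + EGF against EGF called 0 members (0% of all), with 2 and 278. PBS against CTRL called 0 members (0.0301% of all), with 1 and 400. Median differences of the members ran from −0.02 to 0.02 and those of all promoters from −0.02 to 0.01. The adjustment sets the mean over equally common promoters to 0 in each library. These medians therefore cannot show a shift common to all promoters. No other tool was run.

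ZNF223 (ENSG00000178386.13, cluster 7) came closest. It had a peak in all 4 CTRL libraries (6.54, 4.87, 6.89 and 6.07), in 2 of 8 EGF libraries (24H D at 6.50 and 48H D at 5.84), and in 4 of 6 IFNG + EGF libraries (24H A at 6.27, 24H C at 3.98, 48H A at 6.45 and 48H B at 11.3). The groups thus differed in how many libraries had the peak, while the heights overlapped. The difference in adjusted detection between IFNG + EGF and EGF was 0.72 ± 0.18 (SE, limma adjusted p = 0.0678). With the 30 libraries that passed it was 0.92 ± 0.20 (adjusted p = 0.00932), a peak in 4 of 4 against 2 of 7, and with the EGF 48H D library left out, 1 of the 2 EGF libraries that had the peak, it was 0.85 (adjusted p = 0.00433). No other alternative called it: leaving out other libraries gave differences down to 0.58 (adjusted p up to 0.429), and the adjusted p was 0.495 with unadjusted detection (0.42), 0.882 with array weights, 0.572 with the compared groups alone, 0.132 with the lane as a term, 0.0112 with the replicate block, 0.111 with a 500 bp window and 0.0723 without the filter on the number of libraries. ZNF223 had a peak in 3 of 6 PBS and 3 of 6 HGF libraries, 2 of 6 OSM and 0 of 6 TGFB + EGF libraries.

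The other members next in line were below these values. ZNF234, a neighbour of ZNF223 in cluster 7, had a peak in 4 of 8 EGF and 4 of 6 IFNG + EGF libraries (difference 0.48 ± 0.15, adjusted p = 0.298 in limma). ZNF302 and ZNF285 had peaks in 6 of 6 PBS and in 6 of 8 EGF libraries each, and their differences for EGF against PBS were −0.49 ± 0.15 for both (limma adjusted p = 0.267). For HGF the 2 lowest p-values were those of ZNF253 (−0.34 ± 0.11) and ZNF576 (−0.43 ± 0.14), and for OSM those of ZNF573 and ZNF776 (0.26 ± 0.10 each). For TGFB + EGF they were ZNF227 (−0.22 ± 0.09) and ZNF221 (0.24 ± 0.11), and for PBS against CTRL ZNF442 (0.32 ± 0.12) and ZNF285 (0.35 ± 0.18). Their adjusted p-values lay between 0.309 and 0.995 in the same limma fit.

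In the libraries that passed, 4895 promoters and 53 members could be tested for detection. ZNF223 was the 1 member called, in IFNG + EGF against EGF, where 1.12% of all promoters were called. The other comparisons called 0 members, with 0.0204% of all called for EGF, 0% for HGF, 0% for OSM, 0.123% for TGFB + EGF and 0.0204% for PBS against CTRL. At an unadjusted p under 0.05 in limma these held 8, 2, 2, 6 and 1 members (15.1, 3.77, 3.77, 11.3 and 1.89%), beside 13.5, 9.34, 12.3, 12.6 and 7.31% of all, and IFNG + EGF against EGF held 7 (13.2%), beside 10.9%.

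Peak height was tested with limma on log2 fold enrichment, after each library was centred and scaled on the 278 promoters with a peak in all 42 libraries. Only promoters with a peak in at least 30 libraries and 2 of every group entered, 2250 in all and 22 members, since the TGFB + EGF libraries of low yield removed the others. These 22 are the members that stay high where yield is low, and they do not stand for the 240. EGF against PBS called 0 of them (0.267% of all called), HGF 0 (0%), OSM 0 (0.133%), IFNG + EGF against EGF 0 (0.0889%), TGFB + EGF against EGF 0 (0.0444%), and PBS against CTRL 0 (0.444%). At an unadjusted p under 0.05 there were 1, 1, 2, 0, 2 and 4 members in that order (4.55, 4.55, 9.09, 0, 9.09 and 18.2%), beside 13.6, 9.51, 11, 8.31, 16.3 and 17.4% of all promoters.

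Of the 22 members and 6 comparisons, the largest scaled difference was that of ZNF254 from CTRL to PBS. The gene lies at the far end of cluster 4. Its fold enrichment was 15.3, 14.4, 16.2 and 17.0 in CTRL and between 5.54 and 14.1 in PBS, with a median of 10.9. No PBS library reached the lowest CTRL library. These values are not scaled, and unscaled heights were lower in PBS for cluster 4 as a whole. The median of its detected members was 13.1 in CTRL, 8.61 in PBS at 24H and 10.4 in PBS at 48H. On the scaled log2 scale the difference of ZNF254 was −0.50 ± 0.16 (limma adjusted p = 0.0908). Scaled differences of other members were 0.35 ± 0.16 for ZNF548 in HGF, −0.39 ± 0.15 for ZNF653 and 0.21 ± 0.10 for ZNF799 in OSM, 0.20 ± 0.09 for ZNF823 in EGF and −0.25 ± 0.11 for ZNF574 in TGFB + EGF. For IFNG + EGF the values of ZNF431 (−0.21 ± 0.11) and ZNF799 (−0.18 ± 0.10) were the nearest, and for PBS against CTRL ZNF44 stood at −0.33 ± 0.14. None of these passed, with limma adjusted p-values from 0.203 to 0.646.

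With the libraries that passed, 112 members had a peak in every one, so that 7869 promoters could be tested for height. This alternative was chosen after seeing the data. ZNF45 of cluster 7, which fell from CTRL to PBS, was called there beside 2.72% of all promoters. Its CTRL fold enrichments were 12.4, 13, 13.1 and 14.6, and its 5 PBS values ran from 6.04 over a median of 7.66 to 12.0, below all of CTRL. These values are not scaled, and unscaled heights were lower in PBS for cluster 7 as a whole. With all libraries, the median of its detected members was 12.6 in CTRL, 6.93 in PBS at 24H and 9.99 in PBS at 48H. The scaled log2 difference of ZNF45 was −0.57 ± 0.13 (limma adjusted p = 0.00448). With all libraries and a peak required in 1 library of every group, also chosen after seeing the data, it was −0.75 ± 0.21 (adjusted p = 0.0366), which was not called. ZNF45 was outside the rule for named members and is given because it was called.

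ZNF101, at the short-arm end of cluster 4, was the member called for EGF against PBS, beside 1.68% of all promoters. Its fold enrichment was 8.65, 4.54, 4.12, 4.61 and 6.28 in the 5 PBS libraries and ran from 6.03 over 8.18 to 10.6 in the 7 EGF libraries, and was 7.07 to 8.08 in CTRL. Of the PBS libraries, 3 lay below all EGF libraries and the other 2 lay among them. The scaled log2 difference was 0.62 ± 0.14 (limma adjusted p = 0.00643), and with all libraries and a peak required in 1 of every group it was 0.60 ± 0.14 (adjusted p = 0.0219), which was not called. The other comparisons in these libraries called 0 members, with 0.318% of all called for HGF, 0.203% for OSM, 0.0508% for IFNG + EGF and 0% for TGFB + EGF, and with 12.5, 9.82, 4.46 and 8.93% of members at an unadjusted p under 0.05 in limma beside 15.8, 13.7, 8.81 and 9.06% of all.

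The change of each comparison from 24H to 48H was also tested in both limma fits. The 5 ligand comparisons and PBS called 0 members by detection and 0 by height, beside 0% of all promoters in each of the 12 tests. At an unadjusted p under 0.05 in limma there were 6 to 14 members by detection (3.35 to 7.82%), beside 3.68 to 7.18% of all promoters. By height there were 0 to 3 (0 to 13.6%), beside 3.11 to 10.4% of all. When the TGFB + EGF 24H A library was left out, ZNF724, ZNF540 and ZNF571 were called in TGFB + EGF by detection (difference 0.89 each, limma adjusted p = 0.0015), with libraries of 7540 and 5760 peaks then left at 24H. ZNF540 and ZNF571 share a promoter.

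Of all promoters 60%, and of all CpG-rich ones 79.9%, were detected in at least 21 libraries. The same held for promoters of 22 of 23 genes listed for the KRAB corepressor pathway. Among them were TRIM28 in 37, SETDB1 in 36, the HP1 genes CBX5 in 40, CBX3 in 38 and CBX1 in 34, and the DNA methyltransferase DNMT1 in 37. UHRF1, which guides DNMT1, was in 21, and EHMT2, a histone methyltransferase, was in 1. EHMT2 and DAXX, the latter in 28 libraries, lie in the MHC region of chromosome 6. The study left this region out of an analysis of its own because reads aligned poorly there. The counts of both genes are therefore not read as a promoter state. In the detection fit 22 of the 23 were tested and 0 were called in the 6 comparisons, with limma adjusted p-values of 0.363 or more and with 1, 3, 1, 3, 1 and 0 at an unadjusted p under 0.05 in the order above. UHRF1 had the lowest p for IFNG + EGF against EGF, with a difference of −0.54 ± 0.18 (limma adjusted p = 0.428).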

How the data were processed

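ATACseq peaks of 42 MCF10A libraries were used. The authors trimmed reads with Trimmomatic 0.36.5, aligned them to hg38 with Bowtie2 2.3.4.1, removed duplicates with Picard and called peaks in each library with MACS2 2.1.1.20160309.5 (q 0.01), with no mapping quality filter stated in the sources used here. The deposited ratio (fold enrichment at the summit) was the height, the deposited −log10 p and −log10 q ranked and thresholded peaks in alternatives, and summit and width came from the deposited positions (other columns). The score the authors deposited was not used further.

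Members, lists and tests were chosen with earlier results of these data known. Named members were those called or with the 2 lowest p-values per comparison and fit, the highest and lowest of each cluster among those in at least 30 libraries, the first 15 closed ones, 8 of intermediate frequency, and those of known role. Starts were those of 64044 basic transcripts (GENCODE 44). Groups followed the labels. Fits used limma 3.58.1 in R 4.3.3 over all promoters, with 13 groups, no block and 29 residual degrees of freedom, and were tested on simulated data. Copies were found with BLAST 2.17.0. BMP2 was not analysed here.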

Additional observations from a re-analysis of the deposited data

Results flagged for a closer look

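Detection by cluster was checked for single libraries far from the others in the 3 groups of 4 libraries and in the other measures of those groups, 48 tests in all, of which 6 stood out. Chance flags about 1 in 20 groups. A cluster's share moves in steps of 1 member, and 5 of the 6 were a single such step. In CTRL, cluster 4 stood at 48.6% in library D and at 51.4% in the other 3, and cluster 9 stood at 78.9% in library C and at 77.2% in the others. In EGF at 24H, cluster 1, which has 5 members, stood at 60% in library A and at 80% in the others, and cluster 4 stood at 32.4% in library B, the library of that group that did not pass the quality threshold, against 45.9 to 48.6% in the others. In EGF at 48H, cluster 7 stood at 83.3% in library C against 79.2%, and cluster 8 at 74.4% in library A against 71.8%.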

How the results depend on the processing

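Without adjustment for yield, detection called 58 members instead of 0, all lower in TGFB + EGF than in EGF. The TGFB + EGF libraries of low yield enter there as they are. The share of all promoters called without adjustment is not given here, so the 58 are not read as a result about the members. Libraries that passed gave 1 call by detection, and those libraries with promoters present in all of them, an alternative chosen after seeing the data, gave 2 by height. The mean correlation of deviations was 0.03 over 237 same-letter pairs (−0.39 to 0.53). Over 576 pairs with different letters it was −0.01 (−0.51 to 0.52), so libraries were not paired by letter. In most groups with libraries A to C, library A had the highest shares by cluster, so detection followed the letter in part. With the replicate block 0 members were called in every fit. Leaving out each library in turn gave 0 to 1 calls by detection (1 without EGF 48H D, ZNF223), 0 by height, 0 to 3 by detection for the change between times (3 without TGFB + EGF 24H A) and 0 by height, a mean share of 59.7 to 61.5% (main 60.1), a difference from other chromosome 19 genes of 14.8 to 15.3 points (15), a fold enrichment of 8.90 to 9.11 (9.01), a log2 ratio of 0.29 to 0.31 (0.30), a width of 509 to 522 bp (514) and a width difference of 19.4 to 22.3 bp (20.8).

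With only the 20000 peaks of lowest p, the share was 36.7%, the log2 ratio 0.18, the width difference −4.93 bp and the number of members never detected 89 instead of 54. With CpG-rich starts alone the difference in share was −1.77 points. The difference of ZNF221 in TGFB + EGF was −0.38 without adjustment (0.24 with it). That of ZNF574 was 0.0173 in the libraries that passed with promoters present in all of them (−0.25 in the main fit). For the 20000 peaks the rule itself drops weaker peaks, and for the others the cause was not tested. Of 285 alternatives other than leaving out a library, 273 were counted as the same, array weights, sequencing lane as a term and other windows among them. For the tests of named members, 191 of 195 kept their direction and side of the threshold. As 0 of these tests were called in the main fits, keeping the side meant staying uncalled and is no sign of a stable effect. Counts were the same when equal or within a set ratio. Descriptions were the same when they kept their sign and moved by less than the SD between libraries within groups. That SD was 18.9 points for the share of members. The lowest share of a cluster with gaps of 500 kb was counted as the same without a comparison. The peak files give no depth, so that a promoter without a peak in a library of low yield is not shown to be closed there.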
